A study of Homo sapiens with 8 samples.

Results

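ACTA2, the smooth muscle α-actin gene, and 9 further genes of the contractile apparatus (ACTG2, TAGLN, CNN1, MYL9, MYLK, MYH9, TPM1, TPM2 and CALD1) were followed in SUM159 trailblazers, a derivative of the human breast cancer line SUM159 that the labels do not describe further. Probes were taken by platform gene symbol, which gave 22 of the 47304 probes on the array for the 10 genes, of 20042 genes with a probe. The genes were grouped by function around ACTA2, whose higher signal after doxycycline in the ΔNp63α line was already known, so for every comparison that holds the doxycycline-treated ΔNp63α arrays the members' values are a description. Where members past the threshold are counted there, the share of all probes stands beside the count and nothing is read from it.

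RNA was measured on 8 Illumina bead arrays in 4 groups of 2. The first group carried a pLIX vector encoding V5-tagged ΔNp63α, the N-terminally truncated p63 isoform of basal epithelium, and received 1 ug/ml doxycycline for 5 days, which switches the vector on. The second carried that vector for the same 5 days without doxycycline, the third an empty pLIX vector with the same doxycycline treatment, and the fourth the empty vector without doxycycline. Every group thus shared the cell line and a stable pLIX vector, and the labels do not say whether a line was 1 clone or a pool, or whether the replicates were grown separately, so a p-value reflects the scatter of these arrays, which may be technical.

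In smooth muscle, myosin II pulls on actin filaments once its regulatory light chain is phosphorylated by myosin light chain kinase, and tropomyosin, caldesmon and calponin on the filament tune that pull. Many of the genes carry CArG boxes in their promoters, the sites of serum response factor (SRF), which acts there with myocardin or with the actin-sensing MRTF coactivators. In the breast the same proteins mark myoepithelial cells and myofibroblasts, while non-muscle forms of myosin, tropomyosin and caldesmon build stress fibres in many cell types.

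Values are the deposited intensities, which the authors had already brought to a common distribution (a median of 113.5 on every array). A probe was counted as above background over an intensity of 114.4, and it was tested if both arrays of at least 1 group lay above that level, as for 23086 probes. Of the 22 contractile probes, 17 passed, from 7 genes, and 13 were above background on all 8 arrays. The 5 that did not pass were the probes of ACTG2, CNN1 and MYL9 and 1 of the 3 TAGLN probes. Log2 differences and folds are on the scale of background-corrected intensity plus an offset of 50, which understates changes of dim probes. The array listed 0 probes for TP63, so induction of the transgene was not checked here. Spearman correlations were between 0.970 and 0.975 within groups and between 0.954 and 0.975 across groups.

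ACTA2 was higher in induced ΔNp63α cells than in every other group. Its probe (ILMN_1671703) read 860.9 and 1182.1 in ΔNp63α cells with doxycycline, 495.5 and 503.9 in ΔNp63α cells without, 384.9 and 333.9 in empty-vector cells with doxycycline, and 424.6 and 410.1 in empty-vector cells without. Both induced arrays lay above the other 6, and the induced arrays also lay furthest apart. The log2 difference for doxycycline in the ΔNp63α line was 1.08 ± 0.15 (SE, n = 2 arrays per group), or 2.12-fold. Against the empty vector with doxycycline in both lines it was 1.62 ± 0.15, or 3.07-fold. Leaving out single arrays moved the first of these between 0.84 and 1.32 and the second between 1.38 and 1.86.

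**Figure D1:**
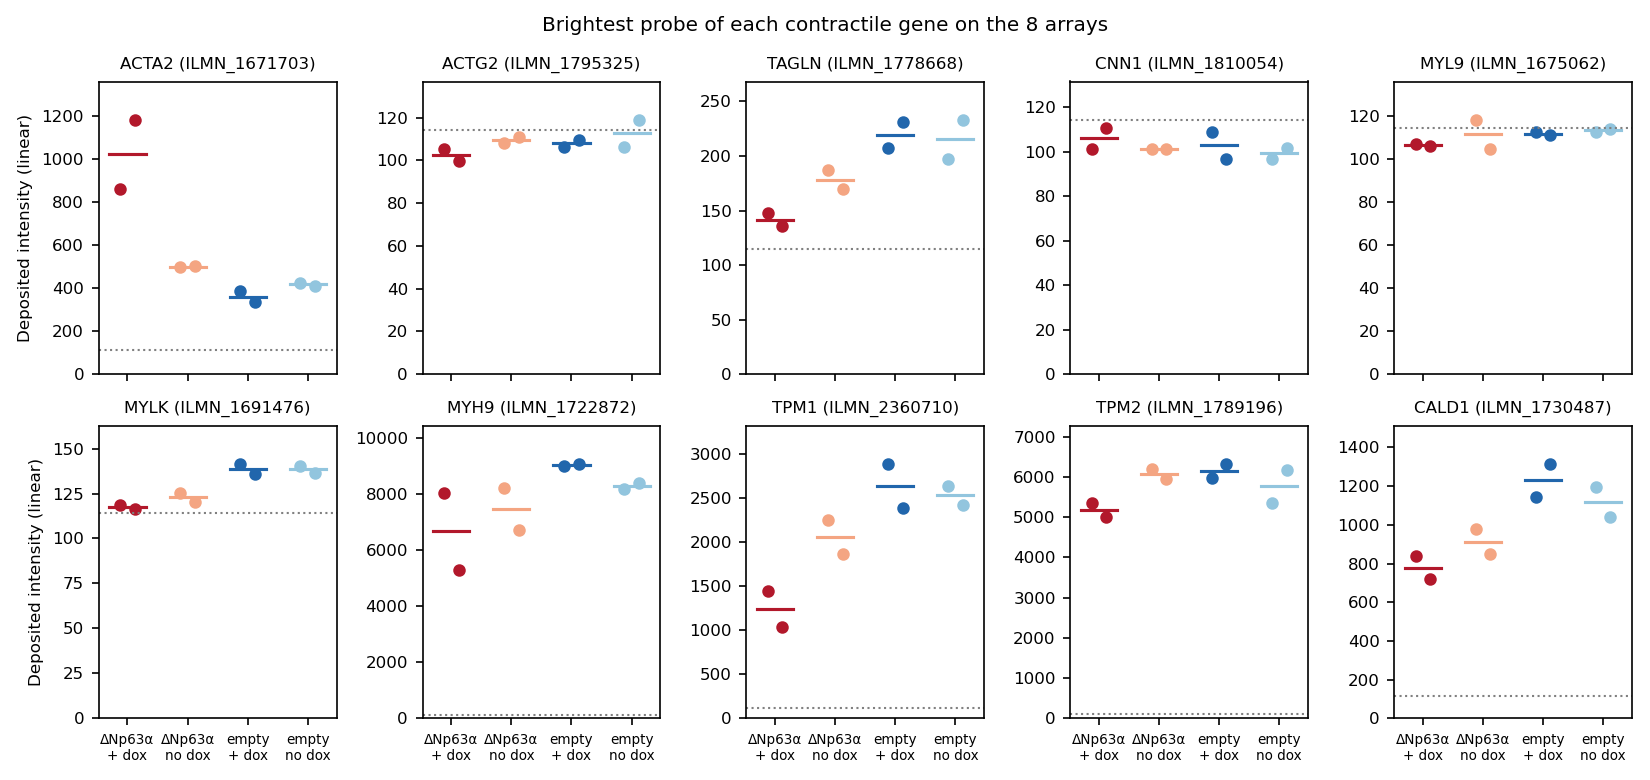
Deposited linear intensity of the brightest probe of each of the 10 genes, by group; points are single arrays, bars the mean of 2 arrays, and the dotted line the background level of 114.4. ACTA2 is highest in the 2 induced ΔNp63α arrays (860.9 and 1182.1), TPM1 and TAGLN are lowest there, and ACTG2, CNN1 and MYL9 stay at the background level.

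Doxycycline alone left ACTA2 slightly lower in the empty-vector line, at a log2 difference of -0.25 ± 0.15 (limma adjusted p = 0.986), with both treated arrays below both untreated ones. The uninduced ΔNp63α line read 0.29 ± 0.15 above the empty vector (limma adjusted p = 0.610), again without overlap between the arrays. That second comparison shares the uninduced ΔNp63α arrays with the induction by which ACTA2 was picked. The doxycycline response of ACTA2 in the ΔNp63α line exceeded that in the empty-vector line by 1.33 ± 0.21 on the log2 scale.

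ACTG2, the enteric γ-actin of visceral smooth muscle and the nearest relative of ACTA2 in the set, was not measurable. Its probe (ILMN_1795325) read 105.3 and 99.5 in induced ΔNp63α cells, 108.2 and 111.0 in uninduced ΔNp63α cells, 106.4 and 109.5 in empty-vector cells with doxycycline, and 106.3 and 119.0 without. Only the last of these 8 arrays exceeded background. For the cytoplasmic actins limma made no call with doxycycline in the ΔNp63α line, where ACTB had a log2 difference of -0.06 ± 0.11 (limma adjusted p = 0.911) and ACTG1 of -0.14 ± 0.12 (adjusted p = 0.749). Probes for the skeletal and cardiac actins ACTA1 and ACTC1 did not pass the background filter.

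The promoters of these genes are shown for ACTA2 and for the 2 members whose windows hold a CArG box without exception, ACTG2 and MYLK. RefSeq promoter windows on GRCh38.p14, each from 250 bases before to 50 after a transcription start, were held for 8 of the 10 genes, 13 windows in all. TAGLN and MYL9 had no window, so their promoters were not searched. Capitals mark the CArG frame, that is CC, then 6 bases that are A or T with at most 1 exception, then GG, which reads alike on both strands:
ACTA2, chr10:88952724-88953023, minus strand: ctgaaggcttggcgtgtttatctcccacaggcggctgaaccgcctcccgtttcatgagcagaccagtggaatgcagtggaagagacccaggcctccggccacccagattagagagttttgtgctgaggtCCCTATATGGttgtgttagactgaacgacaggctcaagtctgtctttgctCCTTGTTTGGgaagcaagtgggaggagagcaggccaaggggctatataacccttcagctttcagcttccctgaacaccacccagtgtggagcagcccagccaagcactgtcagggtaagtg
ACTG2, chr2:73892758-73893057, plus strand: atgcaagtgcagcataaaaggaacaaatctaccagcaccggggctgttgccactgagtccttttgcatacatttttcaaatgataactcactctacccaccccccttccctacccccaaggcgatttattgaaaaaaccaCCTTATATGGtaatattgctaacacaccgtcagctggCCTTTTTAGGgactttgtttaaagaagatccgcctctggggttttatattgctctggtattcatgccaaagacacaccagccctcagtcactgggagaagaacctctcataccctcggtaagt
MYLK, chr3:123620499-123620798, minus strand: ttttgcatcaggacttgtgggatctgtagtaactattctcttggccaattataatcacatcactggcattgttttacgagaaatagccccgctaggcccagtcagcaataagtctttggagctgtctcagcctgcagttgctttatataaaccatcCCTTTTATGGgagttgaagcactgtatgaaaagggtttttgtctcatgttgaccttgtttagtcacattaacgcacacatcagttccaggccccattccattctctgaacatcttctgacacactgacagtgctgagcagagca

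A CArG box with no exception stood in 2 of the 13 member windows, those of ACTG2 and MYLK, against 1.30% of 34943 promoter windows of the same length. ACTG2 held 2 such boxes, CCTTATATGG and CCTTTTTAGG, yet its probe was at background, and MYLK held 1, CCTTTTATGG. The window of ACTA2 printed above held none without exception. It held 2 with 1 exception each, CCCTATATGG from position -121 and CCTTGTTTGG from position -71 relative to the start site. This looser form, searched after the strict one had been seen, was in 4 of the 13 member windows and in 8.14% of all windows. The window not printed among the 4 was that of a CALD1 start, with CCTAAAGAGG from position -26. The second ACTA2 window, at a start further upstream, held neither form. The TEAD-type hexamer GGAATG, read on either strand and not overlapping the CArG frames, occurred in 5 member windows, including the printed ones of ACTA2 and MYLK, and in 14.0% of all windows. These are matches of letters, and binding was not measured.

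TPM1, a tropomyosin that winds along actin filaments and stabilises stress fibres, was lowest where ACTA2 was highest. Its probe ILMN_2360710 read 1447.1 and 1034.3 in induced ΔNp63α cells, 2254.5 and 1868.1 in uninduced ΔNp63α cells, 2891.1 and 2389.1 in empty-vector cells with doxycycline, and 2641.8 and 2421.4 without. The ΔNp63α arrays with doxycycline were the lowest, the uninduced ones came next, and the empty-vector arrays were all higher. A further probe, ILMN_1716687, read 1421.4 and 979.8 in induced cells, 1756.3 and 1437.1 in uninduced cells, 2775.8 and 2616.1 in empty-vector cells with doxycycline, and 2355.6 and 2217.1 without. There the induced and uninduced ΔNp63α arrays stood next to each other, at 1421.4 and 1437.1, without overlapping.

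With doxycycline in both lines, the TPM1 difference from the empty vector was -1.13 ± 0.17 for the first probe and -1.22 ± 0.17 for the second, or 2.19-fold and 2.34-fold lower. For doxycycline within the ΔNp63α line it was -0.77 ± 0.17 and -0.44 ± 0.17. Without ΔNp63α dox replicate 2 these became -0.52 and -0.17. The remaining TPM1 probes, ILMN_2278152 and ILMN_1685339, lay close to background, between 103.9 and 115.1 in induced cells, between 110.5 and 126.3 in uninduced cells, and between 122.7 and 137.8 in the empty-vector line. Before induction the second bright probe was already below its empty-vector level in the ΔNp63α line (-0.54 ± 0.17 on the log2 scale), and neither it nor the first probe (-0.31 ± 0.17) passed (limma adjusted p = 0.364 and 0.632).

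TPM2, the other tropomyosin of the set, was bright and nearly level. Its probe ILMN_1789196 read 5338.3 and 4992.2 in induced ΔNp63α cells, 6190.7 and 5953.1 in uninduced ΔNp63α cells, 5963.5 and 6323.7 in empty-vector cells with doxycycline, and 5357.8 and 6170.0 without. The induced arrays were the lowest 2 of the 8, by a small margin from the lower array of the untreated empty vector. The log2 difference was -0.24 ± 0.11 with doxycycline in the ΔNp63α line and -0.25 ± 0.11 against the empty vector with doxycycline. The second bright probe (ILMN_1757604) gave -0.25 ± 0.12 and -0.37 ± 0.12, and the dim probe ILMN_1789624 stayed between 116.0 and 130.3 on the 8 arrays.

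CALD1 encodes caldesmon, which binds actin, tropomyosin and myosin and restrains the motor. Its brightest probe (ILMN_1730487) read 837.4 and 720.4 in induced ΔNp63α cells, 980.2 and 847.7 in uninduced ΔNp63α cells, 1145.6 and 1315.5 in empty-vector cells with doxycycline, and 1193.5 and 1041.9 without. All 4 ΔNp63α arrays lay below all 4 empty-vector arrays. The log2 difference was -0.69 ± 0.13 against the empty vector with doxycycline in both lines (1.62-fold lower) and -0.24 ± 0.13 for doxycycline within the ΔNp63α line. The CALD1 probes ILMN_2324002 and ILMN_1717990 gave -0.43 ± 0.17 and -0.32 ± 0.12 between the lines with doxycycline, and -0.10 ± 0.17 and -0.11 ± 0.12 within the ΔNp63α line.

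TAGLN encodes transgelin (SM22α), an actin-bundling protein and a classical SRF target. Its probe ILMN_1778668 read 147.3 and 135.6 in induced ΔNp63α cells, 186.9 and 170.0 in uninduced ΔNp63α cells, 207.5 and 231.4 in empty-vector cells with doxycycline, and 197.3 and 233.3 without. The groups followed the order of TPM1, with the induced cells lowest and no overlap between the lines. The log2 difference was -0.85 ± 0.13 between the lines with doxycycline (1.80-fold lower) and -0.47 ± 0.13 for doxycycline in the ΔNp63α line. Because the probe was dim, these figures understate the change in signal. The probe ILMN_2400935 read -0.34 ± 0.12 and -0.23 ± 0.12 in the same comparisons, and ILMN_1706783 did not pass the filter, with values from 107.0 to 117.3.

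CNN1, calponin, which binds actin and is among the markers most restricted to smooth muscle and myoepithelium, was above background on 0 of the 8 arrays. Its probe (ILMN_1810054) read 101.4 and 110.5 in induced ΔNp63α cells, 101.2 on each uninduced ΔNp63α array, 109.0 and 96.8 in empty-vector cells with doxycycline, and 96.8 and 101.6 without. No group difference was measurable for it on these arrays.

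Among the motor genes, MYH9, the heavy chain of non-muscle myosin IIA, was well above background on every array, while MYL9, the smooth muscle regulatory light chain, was not measurable. MYH9 (ILMN_1722872) read 8043.3 and 5287.1 in induced ΔNp63α cells, 8204.8 and 6705.7 in uninduced ΔNp63α cells, 9011.8 and 9077.4 in empty-vector cells with doxycycline, and 8192.0 and 8381.7 without. In both ΔNp63α groups replicate 2 was well below replicate 1, and induced and uninduced arrays overlapped. The log2 difference was -0.19 ± 0.17 for doxycycline in the ΔNp63α line and -0.47 ± 0.17 against the empty vector with doxycycline. Without ΔNp63α dox replicate 2 the first turned to 0.12 and the second shrank to -0.17. The probe ILMN_2087702 gave -0.16 ± 0.17 and -0.39 ± 0.17. The MYL9 probes ILMN_1675062 and ILMN_1776953 stayed between 101.3 and 118.6, each above background on 1 array.

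MYLK encodes the kinase that switches smooth muscle myosin on, and the window printed above is 1 start annotated to the gene. The MYLK probes are annotated to different transcripts. Whether that window and these probes belong to transcripts that encode the kinase was not checked. The probe ILMN_1691476 read 118.4 and 116.5 in induced ΔNp63α cells, 125.3 and 120.4 in uninduced ΔNp63α cells, 141.5 and 135.6 in empty-vector cells with doxycycline, and 140.5 and 136.4 without. The lines did not overlap, although all 8 values were close to background. The log2 difference was -0.37 ± 0.10 between the lines with doxycycline, -0.10 ± 0.10 for doxycycline within the ΔNp63α line and -0.26 ± 0.10 between the lines without doxycycline (limma adjusted p = 0.473). The probe ILMN_2364768 read -0.16 ± 0.11, 0.09 ± 0.11 and -0.21 ± 0.11.

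**Figure D2:**
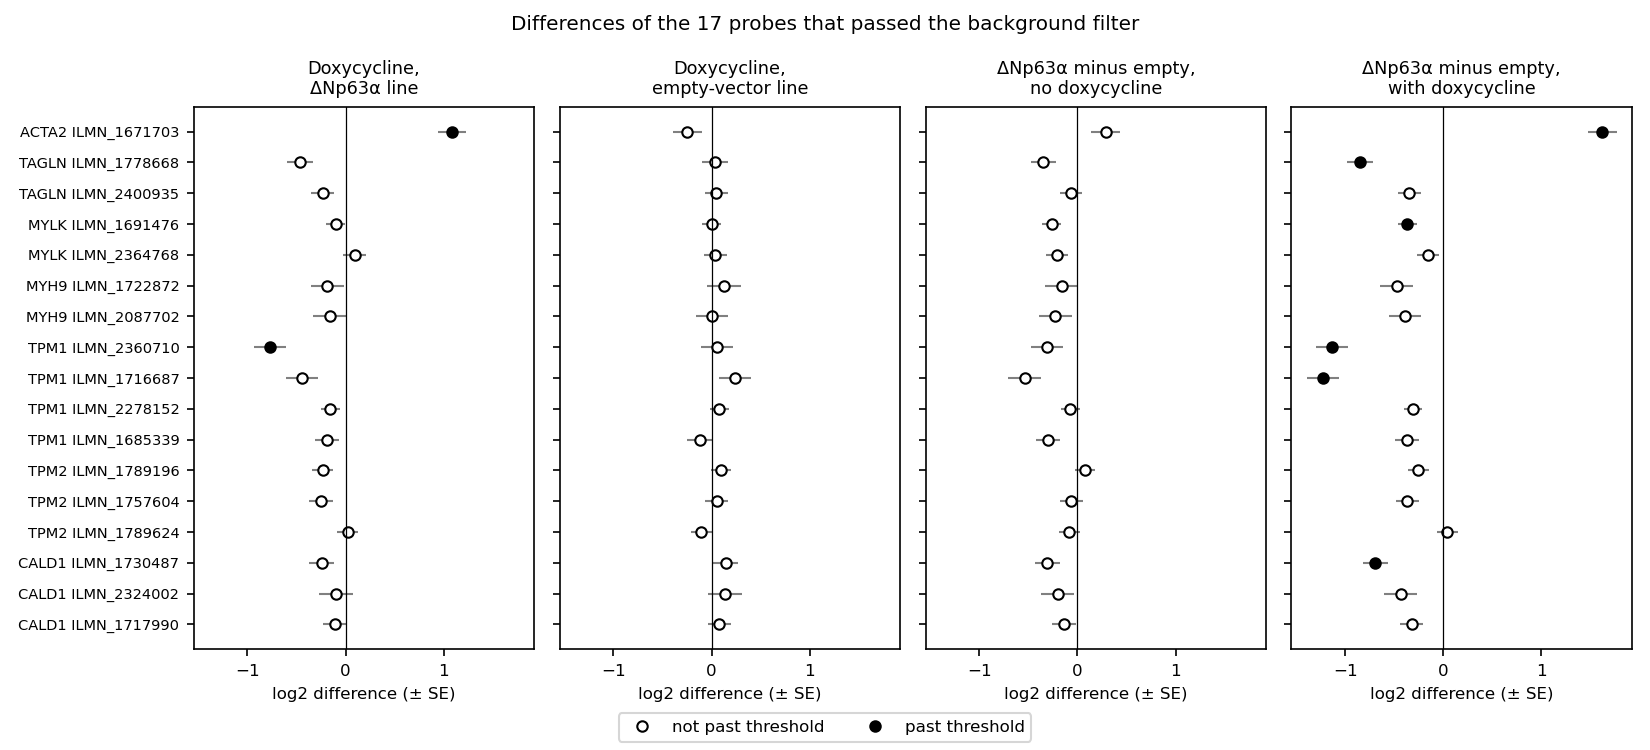
Log2 differences with SE for the 17 contractile probes above background in 4 comparisons of 2 arrays against 2; filled points passed a limma adjusted p of 0.05 over all 23086 probes, and in the first and last panels the members are shown as a description. ACTA2 is the rightmost point in every panel but that of doxycycline in the empty-vector line, at 1.08, 0.29 and 1.62, while in the last panel 15 of 17 probes lie left of 0.

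Across the 17 probes tested, doxycycline in the ΔNp63α line put 2 past the adjusted p of 0.05 in limma, ACTA2 higher and the first TPM1 probe lower, where 1.56% of all 23086 probes passed, 0.862% higher and 0.693% lower. Nothing is read from that count, since ACTA2 was picked in this comparison. The TPM1 call held in 6 of 16 other settings and was lost without any 1 of 7 of the 8 arrays, all but ΔNp63α dox replicate 1, at values from -0.91 to -0.52, whereas ACTA2 passed in all 16. The median log2 difference of the 17 probes was -0.19, against 0.00 over all probes tested. In 10 of the 17 the arrays of the groups did not overlap, 1 higher and 9 lower, where 40.4% of all probes showed no overlap, 19.8% higher and 20.7% lower.

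With doxycycline in both lines, 6 of the 17 probes passed in the ΔNp63α line against the empty vector, where 6.02% of all probes did, 2.86% higher and 3.16% lower. ACTA2 was the 1 higher, and the 5 lower were 2 probes of TPM1 and 1 each of TAGLN, CALD1 and MYLK. The median was -0.37, against 0.00 over all probes. Groups did not overlap for 16 of the 17, 1 higher and 15 lower, where the share over all probes was 48.7%, 24.9% higher and 23.8% lower. CALD1 was not called without ΔNp63α dox replicate 2 or empty-vector dox replicate 2 (-0.58 and -0.59), and MYLK was called in 5 of 16 other settings. This comparison shares its induced ΔNp63α arrays with those by which ACTA2 was picked, so nothing is read from its count. The shares over all probes themselves rest on few arrays: 1390 probes passed here and between 384 and 1237 on leaving out 1 array, the fewest without empty-vector dox replicate 2 (384) or ΔNp63α dox replicate 2 (388). For doxycycline in the ΔNp63α line 359 passed, and between 124 and 342 on leaving out 1 array, with 124 without no-dox replicate 1, 149 without dox replicate 2 and 183 without no-dox replicate 2 of that line, and 230 without either untreated empty-vector replicate.

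In the empty-vector line limma called 0 of the 17 probes, and 0 had an unadjusted p under 0.05, where 0% of all probes were called. Their log2 differences lay between -0.25 for ACTA2 and 0.24 for a TPM1 probe, with 5 probes free of overlap (3 higher and 2 lower), where 34.6% of all probes were (16.9% higher and 17.6% lower). Without doxycycline, the ΔNp63α line differed from the empty vector at 0 of 17 probes after adjustment in limma, where 0.026% of all probes passed. An unadjusted limma p under 0.05 was seen for 5 probes. The share of all probes at that unadjusted cut was not computed, and several probes are of the same gene, so nothing is read from these counts. The median between the lines without doxycycline was -0.20, against 0.00 over all probes, and 15 of the 17 values were below 0. Without overlap, 8 probes were lower and 1 higher, against 40.7% of all probes (21.5% higher and 19.2% lower). In the interaction of vector and doxycycline, 1 of the 17, ACTA2, was past the threshold as higher, where 0.347% of all probes were past it and 0.234% as higher. Nothing is read from that count either, since the interaction holds the arrays by which ACTA2 was picked, and ACTA2 was past the threshold in 9 of 15 other settings.

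Over the 8 arrays the brightest probes of the 6 other measured genes had a negative Pearson r with the log2 signal of ACTA2. It lay between -0.95 for TAGLN and -0.80 for MYH9, whose induced and uninduced ΔNp63α arrays overlapped. How many genes outside the set had an r as low is not given here, and ACTA2 was picked on some of these arrays, so nothing is read from the shared sign. The 8 arrays share 4 treatments, so these values describe the group pattern and carry no p. Of 12378 other genes the 5 most like ACTA2 were OSCAR, an immune-type collagen receptor (r = 0.99), SSR2, a subunit of the translocon-associated protein complex (0.99), SAT1, which acetylates polyamines for breakdown (0.98), MBOAT1, a phospholipid acyltransferase (0.98), and TMEM205, a membrane protein (0.98). SAT1 read 1788.8 and 2320.9 in induced ΔNp63α cells, 886.7 and 822.3 in uninduced ΔNp63α cells, 739.9 and 581.7 in empty-vector cells with doxycycline, and 843.7 and 856.4 without. As for ACTA2, induced replicate 2 was the highest array. OSCAR was dim, at 141.5 and 171.2 in induced ΔNp63α cells and between 104.1 and 120.2 on the other arrays. It passed the background filter only through the induced group.

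Other actomyosin genes were counted in the same fits. The 61 listed, in 5 lists, had a probe for 52 and a tested probe for 45. With doxycycline in the ΔNp63α line, 1 of the 45 (2.22%) rose and 0 fell in limma, a share near the 1.56% of all probes. That was PDLIM1, a LIM-domain adaptor of stress fibres, which read 1090.5 and 1127.3 in induced against 588.2 and 741.6 in uninduced ΔNp63α cells, a log2 difference of 0.79 ± 0.15 (limma adjusted p = 0.0234). In the empty-vector line PDLIM1 had 939.3 and 1158.1 with doxycycline and 1031.2 and 882.8 without, so that induced ΔNp63α cells overlapped it. The call was lost without ΔNp63α dox replicate 1 (0.81), dox replicate 2 (0.76) or no-dox replicate 1 (0.61), and with no background correction (0.75). The median of the 45 was 0.01, against 0.00 over all probes.

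**Figure D3:**
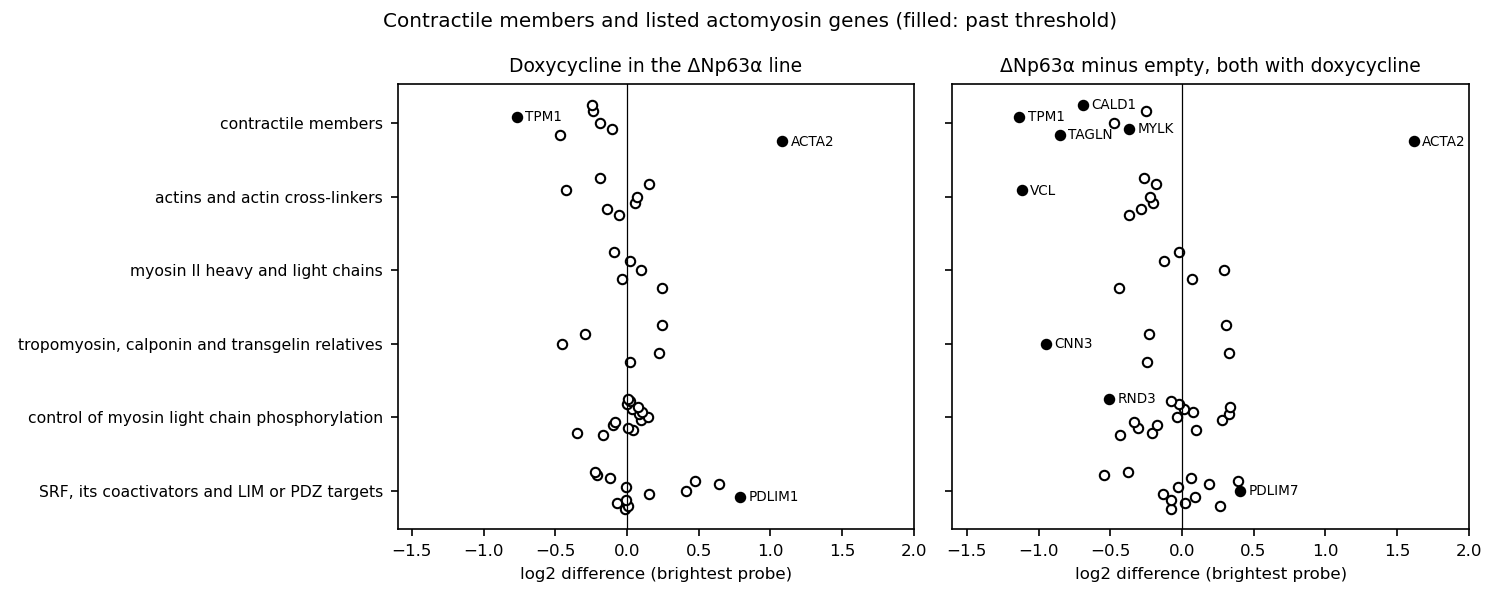
Log2 differences of the brightest tested probe of each contractile member (top row) and of 45 other actomyosin genes in 5 lists, for doxycycline in the ΔNp63α line (left) and for the ΔNp63α line minus the empty vector, both with doxycycline (right); filled and named genes passed a limma adjusted p of 0.05. Most listed genes lie near 0, with VCL (-1.11), CNN3 (-0.95) and RND3 (-0.51) lower and PDLIM7 (0.40) higher on the right.

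Against the empty vector, with doxycycline in both lines, 1 of the 45 was higher and 3 were lower at the threshold (8.89%), near the 6.02% of all probes (2.86% higher and 3.16% lower). VCL, vinculin, which couples actin to focal adhesions, read 702.2 and 591.7 in ΔNp63α cells against 1288.8 and 1401.0 in empty-vector cells (-1.11 ± 0.12, limma adjusted p = 6.174e-04). CNN3, the calponin of non-muscle cells, read 644.0 and 668.9 against 1153.3 and 1300.5 (-0.95 ± 0.10, limma adjusted p = 6.644e-04). Both calls held in all 16 other settings. VCL also read -0.42 and CNN3 -0.45 with doxycycline within the ΔNp63α line, where neither passed (limma adjusted p = 0.145 and 0.0634).

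The remaining calls of that comparison were less stable. RND3 read -0.51 ± 0.13 (limma adjusted p = 0.0396), and PDLIM7, a further LIM adaptor, read 0.40 ± 0.09 (adjusted p = 0.0286), and each was called in 9 of 16 other settings. Both were lost without either ΔNp63α dox replicate or either empty-vector dox replicate, with RND3 between -0.58 and -0.43 and PDLIM7 between 0.39 and 0.42.

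By list, the actins and cross-linkers had 0 higher and 1 lower of 7 tested, the myosin chains 0 and 0 of 5, the tropomyosin, calponin and transgelin relatives 0 and 1 of 5, the control of light chain phosphorylation 0 and 1 of 15, and SRF with its coactivators and LIM or PDZ targets 1 and 0 of 13. The median of the 45 was -0.08, against 0.00 over all probes. Among the regulators, SRF itself read -0.07 ± 0.12 (limma adjusted p = 0.784), and MRTFA read 0.27 ± 0.10 (adjusted p = 0.174). With doxycycline alone, with the interaction and between the lines without doxycycline, limma called 0 of the 45.

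Markers of other cell types were read on the same arrays, since in bulk RNA fewer cells of a type and less RNA per cell cannot be told apart. Of 7 markers of differentiated smooth muscle, MYH11, DES and LMOD1 did not pass the background filter, and 0 of the 4 tested were called with doxycycline in the ΔNp63α line. Those 4 were dim against the background level of 114.4, so a change could be missed. Over all arrays MYOCD read 112.0 to 129.2, SYNPO2 112.6 to 121.5, SYNM 117.4 to 132.9 and SMTN 123.8 to 149.3. The intensity summed over all 7, those at background included, was between 812.3 and 820.8 in induced ΔNp63α cells, between 816.5 and 827.4 in uninduced ones, between 799.4 and 820.9 in the empty-vector line with doxycycline and between 790.5 and 795.7 without. Of 8 myoepithelial and basal markers 7 had a probe and KRT5 and CDH3 did not pass. SERPINB5, the serpin maspin (1.27 ± 0.10, limma adjusted p = 7.517e-05), and LAMB3, a laminin-332 chain (0.53 ± 0.10, adjusted p = 0.0284), rose beside ACTA2, and their list summed to between 1233.1 and 1383.5 in induced, 1063.6 and 1079.1 in uninduced, 1106.1 and 1151.8 in doxycycline-treated empty-vector and 1124.1 and 1128.7 in untreated empty-vector cells. No background was taken off these sums. SERPINB5 alone read 334.3 and 361.3 in induced against 171.8 and 169.3 in uninduced cells, and MME read 225.8 and 350.4 in induced cells. The sum thus does not show a rise across the list. The LAMB3 call held in 10 of 16 other settings. SERPINB5 and LAMB3 were 2 of the 5 tested, where 1.56% of all probes were called. KRT14 (0.17 ± 0.10, limma adjusted p = 0.558), MME (-0.01 ± 0.20, adjusted p = 0.993) and OXTR (0.08 ± 0.11, adjusted p = 0.86) were not called. KRT14 passed the filter only through the induced arrays, at 119.6 and 123.2. Between the lines with doxycycline LAMB3 read 0.23 ± 0.10 (limma adjusted p = 0.239), and without doxycycline -0.27 ± 0.10 (adjusted p = 0.482).

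Of 8 fibroblast markers 5 were tested and LUM, THY1 and FAP did not pass. With doxycycline in the ΔNp63α line 2 of the 5 fell, where 1.56% of all probes were called. They were COL3A1, a fibrillar collagen chain (-0.83 ± 0.12, limma adjusted p = 0.00539), and DCN, the proteoglycan decorin (-0.45 ± 0.10, adjusted p = 0.0468). In induced cells both lay close to the background level of 114.4, COL3A1 at 122.4 and 109.7 and DCN at 118.4 and 117.4. COL1A1 (-1.05 ± 0.32, limma adjusted p = 0.185), PDGFRA (0.47 ± 0.13, adjusted p = 0.133) and POSTN (0.06 ± 0.10, adjusted p = 0.891) did not pass. The list of 8 summed to between 1617.6 and 2316.3 in induced, 2211.5 and 3174.6 in uninduced, 3004.4 and 3068.9 in doxycycline-treated empty-vector and 2946.6 and 3124.7 in untreated empty-vector cells. The induced and uninduced ranges overlap. COL1A1, which was not called, was the largest term of the sum, at 1078.7 and 521.9 in induced and 2044.6 and 1106.3 in uninduced cells. The DCN call held in 5 of 16 other settings and the COL3A1 call in 13 of 15. With doxycycline in both lines, 3 of the 5 fibroblast markers (DCN, COL1A1 and COL3A1) were lower than in the empty vector, where 6.02% of all probes passed, and PDGFRA read 0.41 ± 0.13 (limma adjusted p = 0.0988). The COL1A1 call (-1.38 ± 0.32) held in 8 of 16 other settings and was lost without ΔNp63α dox replicate 2 (-0.82), either empty-vector dox replicate (-1.35 and -1.41) or either untreated empty-vector replicate. Vimentin (VIM), which mesenchymal cells carry, was also lower there (-0.40 ± 0.09, limma adjusted p = 0.0315), a call that held in 8 of 16 other settings. VIM read -0.27 ± 0.09 between the lines without doxycycline (limma adjusted p = 0.447). With doxycycline within the ΔNp63α line it read -0.01 ± 0.09 (limma adjusted p = 0.992). The part of either marker list in the contractile values was not tested. Of the luminal markers that passed, the keratin KRT8 was lower in the ΔNp63α line with doxycycline in both lines (-0.64 ± 0.13, limma adjusted p = 0.0179, called in 13 of 16 other settings). In that comparison KRT18 read 0.37 ± 0.15 (limma adjusted p = 0.201) and GATA3 -0.03 ± 0.11 (adjusted p = 0.907). All 4 endothelial markers and, of the luminal ones, CDH1, EPCAM, KRT19 and ESR1 did not pass the filter, nor did the blood cell markers PTPRC and CD3E. The blood cell markers CD68 and HBB did pass it. HBB passed only through the doxycycline-treated empty-vector arrays, at 117.8 and 114.8, and lay below the background level on the others, at 106.8 to 113.1. With doxycycline in the ΔNp63α line CD68 read 0.59 ± 0.21 (limma adjusted p = 0.281) and HBB -0.02 ± 0.10 (adjusted p = 0.973).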

How the data were processed

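Total RNA was labelled as biotin cRNA and hybridised to single-colour Illumina arrays, per the labels' protocols. The values used were intensities on a linear scale that the authors deposited. Judged from the values quantile normalisation had been applied with no background subtracted, since sorted arrays differed by at most 0.175 from their mean; the software is not given in the sources used here. A further deposited table was not used because its 16 columns of per-sample values carry names that match no label.

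Intensities were corrected with normexp (offset 50) and set to log2. The background level was the mode of all values (106.9) plus the 0.95 normal quantile times 4.53, the SD of values below the mode, mirrored. limma 3.58.1 in R 4.3.3 was fitted with 1 mean per group over 8 arrays (4 residual and 7.00 prior degrees of freedom), with eBayes and two-sided Benjamini-Hochberg adjustment over 23086 probes at 0.05, and was tested on simulated data. The median SE was 0.113, and the number of arrays limits the precision. For listed genes the brightest passing probe was used. Members, lists and tests were chosen with earlier results of these data known; the looser CArG and the TEAD hexamer searches were added later. Every member probe was described; pathway genes were named if past the threshold, up to 4 per list, beside relatives, regulators and cell type markers named for their role after their values were seen. Symbols came from the platform annotation, which gave 30105 probes 1 symbol, 8 several and 17191 none.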

Additional observations from a re-analysis of the deposited data

Results flagged for a closer look

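SERPINB5, the serpin maspin of the myoepithelial and basal list, is listed because its response to doxycycline differed between the lines by a test of the difference itself. The log2 difference was 1.24 (limma adjusted p = 0.00238), with the call kept in all 15 other settings. Its arrays read 334.3 and 361.3 in induced and 171.8 and 169.3 in uninduced ΔNp63α cells, against 254.4 and 255.7 in doxycycline-treated and 250.6 and 251.1 in untreated empty-vector cells. The uninduced ΔNp63α line was thus below the untreated empty vector, by -0.71 ± 0.10 on the log2 scale (limma adjusted p = 0.0492), a call that held in 8 of 16 other settings and was lost without any 1 of 6 arrays, all but the induced ΔNp63α replicates (-0.73 to -0.70). The contractile members were left out of this listing, since ACTA2 was picked on arrays that the same difference uses.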

How the results depend on the processing

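Of 16 other settings, 8 left out 1 array each. Member probes called with doxycycline in the ΔNp63α line numbered 2 and became 1 with no background correction, with a normexp offset of 16 and with only the arrays compared, and between 1 and 3 on leaving out an array. Pathway genes called there numbered 1 and became 4 with no filter, 4 with 1 probe per gene and between 0 and 1 without an array. In the interaction, 1 member probe became 0 with no background correction and between 0 and 1 without an array. Between the lines with doxycycline, 6 member probes were between 4 and 7 without an array, and 4 pathway genes became 2 with the offset of 16, 2 with only the arrays compared and between 2 and 4 without an array. The cause of these shifts was not tested.

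With the replicate number as a block, pathway genes called became 5 and 8 in the comparisons of doxycycline in the ΔNp63α line and of the lines with doxycycline, and interaction member probes 2. The labels do not say what the number stands for, and same-numbered arrays deviated together at r between 0.039 and 0.421 over 6 pairs of groups, so the samples were taken to share only a number.

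Some small, uncalled differences changed sign on leaving out an array. With doxycycline in the empty-vector line these were, as ranges, CALD1 ILMN_1717990 (-0.0493 to 0.205) and ILMN_2324002 (-0.0211 to 0.292), MYH9 ILMN_2087702 (-0.0571 to 0.0632), MYLK ILMN_1691476 (-0.0441 to 0.046) and ILMN_2364768 (-0.0253 to 0.106), TAGLN ILMN_1778668 (-0.11 to 0.19) and ILMN_2400935 (-0.0039 to 0.10), TPM1 ILMN_2360710 (-0.0837 to 0.196), and TPM2 ILMN_1757604 (-0.0869 to 0.194) and ILMN_1789196 (-0.0069 to 0.20). Between the lines without doxycycline they were TAGLN ILMN_2400935 (-0.143 to 0.0132), and TPM2 ILMN_1757604 (-0.151 to 0.0274), ILMN_1789196 (-0.0236 to 0.182) and ILMN_1789624 (-0.183 to 0.0208). With doxycycline in the ΔNp63α line they were CALD1 ILMN_2324002 (-0.32 to 0.12), MYH9 ILMN_1722872 (-0.49 to 0.12) and ILMN_2087702 (-0.45 to 0.12), MYLK ILMN_2364768 (-0.05 to 0.23) and TPM2 ILMN_1789624 (-0.05 to 0.09), and with doxycycline in both lines TPM2 ILMN_1789624 (-0.03 to 0.11). In the interaction they were MYH9 ILMN_2087702 (-0.45 to 0.12), MYLK ILMN_2364768 (-0.09 to 0.19) and TPM1 ILMN_1685339 (-0.23 to 0.08). Normalising the further deposited table was not run, because its columns match no label. Signal near background limits ACTG2, CNN1, MYL9, MYLK, TAGLN ILMN_2400935, CALD1 ILMN_1717990 and the dim TPM1 and TPM2 probes, and in induced ΔNp63α cells also COL3A1 and DCN. It also limits MRTFA, MYOCD, SYNPO2, SYNM, SMTN, KRT14, POSTN and HBB, and outside induced ΔNp63α cells OSCAR.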
